A study of Mus musculus with 6 samples.

Results

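The genes described here are *Sox5*, *Sox6*, *Sox9*, *Runx1*, *Runx2*, *Runx3*, *Mef2c*, *Sp7*, *Hdac4* and *Dlx5*, the transcription factors and the co-repressor that steer a growth plate cell from cartilage to hypertrophy and bone. They were chosen by name, and they make up 10 of the 47729 genes in the table. RNAseq was run on the upper end of the tibia of 14-day-old mice, 3 of the Control line and 3 of the LS1 line, taken from different families of the same generation of a selection experiment. In the Longshanks line LS1, parents had been chosen for tibiae that were long for their body mass, whereas Control mice were bred at random from the same CD-1 (ICR) stock. No mouse of either group carried a transgene or received a treatment. Each library held polyadenylated RNA of both epiphyses of 1 mouse, so that growth plate cartilage, joint cartilage, bone and marrow were measured together. Because 1 selected line was sequenced, effects of selection and of chance descent within the line cannot be told apart.

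In the growth plate, SOX9 with its partners SOX5 and SOX6 switches on the matrix genes of proliferating chondrocytes. RUNX2, aided by RUNX3 and MEF2C, drives the same cells into hypertrophy, while HDAC4 holds RUNX2 and MEF2C in check under parathyroid hormone-related protein. SP7 and DLX5 act with RUNX2 in hypertrophic cells and in the osteoblasts that follow, whereas *Runx1*, *Runx3* and *Mef2c* are also known from blood cells of the marrow.

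The libraries held 68803249 to 76581954 reads in Control and 82227711 to 88745366 in LS1, so that LS1 was the deeper group throughout. Values are the deposited normalized counts, which are read counts divided by 1 size factor per library. Of all genes, 19308 with a mean of at least 20 reads were tested, and all 10 members were among them, with no fewer than 896 reads in any library. LS1 replicate 3 stood apart from its group: on the first principal component, which held 35.1% of the variance, it lay at -4.29, against 43.7 and 50.1 in the other LS1 libraries and -41.5 to -22.1 in Control. Transcripts of Y-linked genes were abundant in 1 of 3 Control and 2 of 3 LS1 libraries, and the labels give no sex. The chondrocyte markers fitted the labelled tissue, with all 8 detected at high levels, and so did the 8 osteoblast markers. In bulk tissue, fewer cells of a type and less RNA per cell cannot be told apart.

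Per length, *Sp7* was by far the most abundant of the 10 genes, and *Hdac4* and *Sox5* were the least, in an order that differed between libraries. Levels were compared between genes as normalized counts per kb of annotated exon. All annotated exons of a gene were merged, from 2.26 kb for *Dlx5* to 15.8 kb for *Hdac4*, so the order and its span depend on this choice of length. By count alone, the Control mean was 16425 for *Sp7* and 12686 for *Mef2c*. *Sp7*, the osteoblast determinant also called osterix, stood at 4834 ± 367 per kb in Control (SD, n = 3). *Sox9* followed at 1181 ± 133 per kb. Below it came *Runx2* at 811 ± 108 and *Mef2c* at 807 ± 89.0 per kb, a pair whose order held in 3 of 6 libraries and which the spread does not separate. *Dlx5* (645 ± 49.8 per kb), *Sox6* (622 ± 140 per kb) and *Runx3* (518 ± 51.0 per kb) formed a middle group in which neighbouring genes kept their order in 4 of 6 libraries. *Runx1* lay below them at 271 ± 15.4 per kb in every library. *Hdac4* (95.1 ± 4.62 per kb) and *Sox5* (89.3 ± 17.7 per kb) came last, in an order seen in 2 of 6 libraries. The Control means thus spanned a 54.1-fold range, and all other neighbours kept their order in 6 of 6 libraries.

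**Figure D1:**
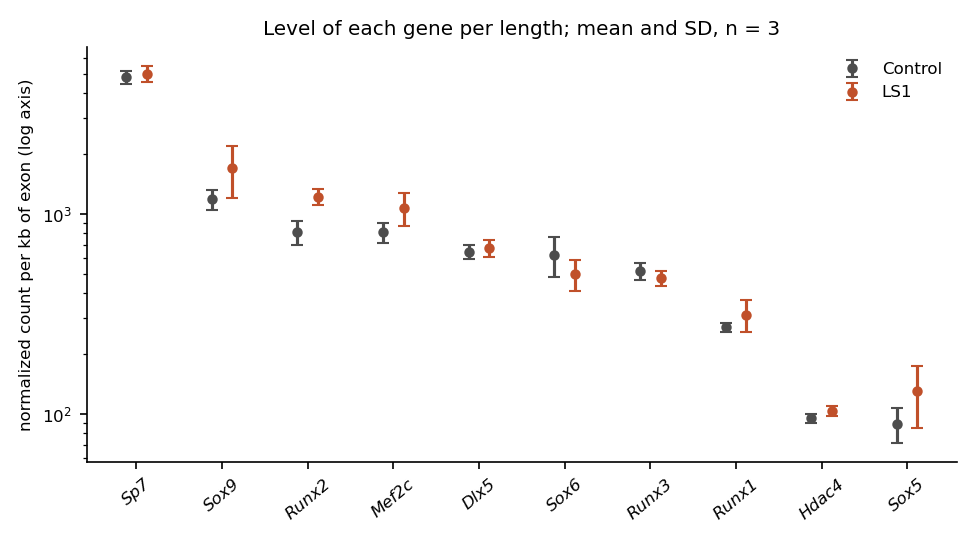
Level of each of the 10 genes as normalized counts per kb of exon on a log axis, with points at the group mean and bars of 1 SD (n = 3 Control, grey, and n = 3 LS1, orange). *Sp7* stands alone at the top, *Hdac4* and *Sox5* lie lowest in Control, and the grey and orange bars are farthest apart for *Runx2*.

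The question for these genes was whether the factors that set the pace of chondrocyte maturation were expressed at other levels in the long-boned line. The answer was mixed: 8 of the 10 genes had a higher mean log2 level in LS1 (50.7% of all tested genes did) and 2, *Sox6* and *Runx3*, a lower one, and *Runx2* showed the clearest difference. No member passed the test of limma across all genes (adjusted p from 0.185 to 0.895), as 0.0725% of all tested genes did. An unadjusted p under 0.05 was reached by 3 members, *Runx2*, *Mef2c* and *Sox9*, all higher in LS1, and by 12.9% of all tested genes, 7.08% on the higher and 5.86% on the lower side. All 3 LS1 libraries lay above all Control libraries for 2 members, *Runx2* and *Mef2c*, against 10.3% of all tested genes on that side, 8.94% on the other and 19.2% on either. The median log2 fold change was 0.16 over the members and 0.0054 over all tested genes. The 2 of 10 with groups apart thus lay near the share of all genes on either side. The 3 of 10 at the unadjusted threshold were more than the 12.9% of all genes, but 10 genes are too few to read this as an excess. With limma-voom the number was 2.

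The count tests on the recovered reads gave 1 call with DESeq2 (*Runx2*), where 2.58% of genes were called, and 0 with the quasi-likelihood test of edgeR, where 0.0363% were; at an unadjusted p under 0.05 the members numbered 4 with DESeq2, against 13.9% of all genes, and 3 with edgeR, against 13.2%. Leaving out LS1 replicate 3 brought limma to 1 call (*Sox9*) with 1.68% of all genes called, and DESeq2 to 3 (*Sox5*, *Sox9* and *Runx2*) with 5.46% called. Without this library 4 members had an unadjusted limma p under 0.05, against 16.7% of all genes, and the groups did not overlap for 6, against 34.6%. Without LS1 replicate 1 the unadjusted threshold was reached by 1 member, against 12.2% of all genes, and without Control replicate 1 the groups did not overlap for 4, against 30.2%.

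**Figure D2:**
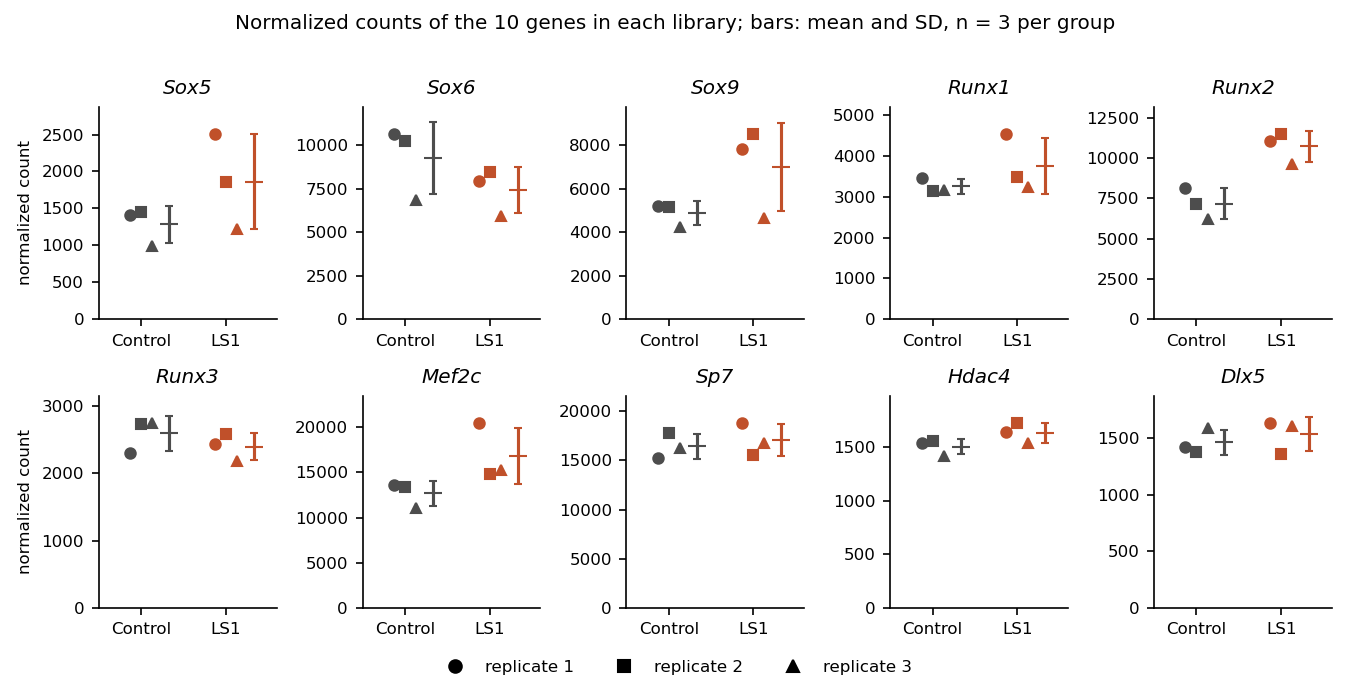
Normalized count of each gene in each library (linear axes from 0; circle, square and triangle are replicates 1, 2 and 3), with the group mean and a bar of 1 SD (n = 3). Every LS1 point lies above every Control point for *Runx2* and *Mef2c*, and the triangles of the 3 *Sox* genes are the lowest point of their group in Control and in LS1.

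Among the SOX genes, *Sox9* and *Sox5* had higher means in LS1 and *Sox6* a lower one, and all 3 varied widely among mice of one group. *Sox9* (chr11:112782224-112787760, plus strand, GRCm38) encodes the factor without which cartilage does not form. Its normalized count was 5217, 5179 and 4249 in Control and 7818, 8501 and 4668 in LS1. LS1 replicates 1 and 2 were well above Control, whereas LS1 replicate 3 fell inside the Control range. LS1 minus Control, the log2 difference was 0.48 ± 0.21 (SE), with a 95% interval of 0.02 to 0.94 and an adjusted p of 0.371 from limma. Without LS1 replicate 3 it was 0.75 with an adjusted p of 0.0323. The paper did not call *Sox9* different by RNAseq. Its quantitative PCR on dissected growth plates of a later generation went the other way. There *Sox9* was significantly lower in another selected line, and LS1 showed a trend to lower levels.

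*Sox5* (chr6:143828425-144781977, minus strand) encodes a partner of SOX9 that lacks an activation domain of its own. It was measured at 1415, 1446 and 991 in Control and at 2502, 1860 and 1220 in LS1. Again the first pair of LS1 libraries lay above every Control library and the last did not. The log2 fold change was 0.49 ± 0.25, with a 95% interval of -0.07 to 1.06 and an adjusted p of 0.444 from limma. The antisense gene *Sox5os1* shares 1330 bp of exon with *Sox5* and had 0 reads in every library. Because the strand setting of the counting is not given, reads on the shared bases may be missing from both genes. The count of 0 therefore does not show that antisense RNA was absent.

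*Sox6* (chr7:115470872-116038796, minus strand) encodes the closest relative of SOX5, with which it is largely interchangeable in cartilage. Its counts were 10611, 10229 and 6847 in Control and 7908, 8424 and 5909 in LS1. The groups overlapped through Control replicate 3, which was lower than 2 of the LS1 libraries. The difference on the log2 scale was -0.31 ± 0.19, with an interval of -0.73 to 0.12 and an adjusted p of 0.527. By count, *Sox6* was the most abundant SOX gene of these samples in Control, at 9229 ± 2072 (SD, n = 3) against 4882 ± 548 for *Sox9* and 1284 ± 254 for *Sox5*; per kb of exon *Sox9* was higher than both.

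The 3 SOX genes were lowest in the same mice, Control replicate 3 and LS1 replicate 3. The SD of log2 values within groups was 0.43 for *Sox5*, 0.35 for *Sox9* and 0.31 for *Sox6*, at the 77.5, 68.8 and 63.0 percentiles of all tested genes. The other 7 members ranged from 0.08 for *Hdac4*, at the 2.73 percentile, to 0.22 for *Mef2c*. The libraries rich in Y-linked transcripts were Control replicate 3, LS1 replicate 1 and LS1 replicate 3. With Y-linked expression as a covariate, the limma log2 fold change was 0.58 for *Sox5*, 0.60 for *Sox9* and -0.17 for *Sox6*. Without the covariate it was 0.49, 0.48 and -0.31. The part of sex in these values was not tested beyond this covariate. Control replicate 3 and LS1 replicate 3 also shared the letter that opens their sample titles, C. With the letters as a replicate block, the adjusted p of limma was 0.175 for *Sox5*, 0.190 for *Sox6* and 0.151 for *Sox9*. Without the block it was 0.444, 0.527 and 0.371. The adjusted p was lower with the block for each of the other members too, for *Runx2* at 0.0837 against 0.185. An unadjusted limma p under 0.05 was reached by 17.5% of all tested genes with the block and by 12.9% without it. The part of the letter in these values was not tested further.

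The RUNX family split in another way: *Runx2* was higher in every LS1 library, *Runx1* overlapped, and *Runx3* had a slightly lower mean. *Runx2* (chr17:44495987-44814797, minus strand) encodes the master factor of hypertrophy and of the osteoblast. It was counted at 8131, 7142 and 6220 in Control and at 11098, 11481 and 9618 in LS1. The lowest LS1 library, replicate 3, still exceeded the highest Control library. The log2 fold change was 0.59 ± 0.14, or 1.5-fold with a 95% interval of 1.21 to 1.86, and the adjusted p was 0.185 from limma (unadjusted 0.00153, rank 160 among all tested genes), 0.201 from edgeR and 0.0282 from DESeq2. The antisense gene *Runx2os1* shares 519 bp of exon with *Runx2*, and its count of 82.1 to 104 over the libraries was 1.03% of that of *Runx2*. The limit given for *Sox5os1* applies here too. The paper lists *Runx2* and *Col10a1* as higher in LS1 by RNAseq. Its quantitative PCR on dissected growth plates showed no significant difference in LS1 for either gene.

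*Runx1* (chr16:92601466-92826149, minus strand), best known as a blood stem cell factor and also expressed in early chondrocytes, had counts of 3469, 3133 and 3164 in Control and 4534, 3499 and 3250 in LS1. LS1 replicate 1 was clearly the highest, and LS1 replicate 3 lay within the Control range. Its log2 fold change of 0.19 ± 0.15 had an interval of -0.14 to 0.53.

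*Runx3* (chr4:135120652-135177990, plus strand), which works beside RUNX2 in hypertrophy and is also a T cell factor, had counts of 2295, 2734 and 2741 in Control and 2429, 2577 and 2176 in LS1. The groups overlapped almost fully. Its log2 fold change was -0.11 ± 0.15, and the interval of -0.43 to 0.21 leaves room for a small difference in either direction.

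The 3 RUNX genes shared a feature of sequence. Promoter windows of RefSeq (GRCm38.p6, from 250 bases before to 50 after a transcript start) were found for 7 of the 10 members, 16 windows in all, with no entry for *Sox9*, *Sp7* and *Dlx5*. They were searched on both strands for the RUNX core motif TGTGGT, which reads ACCACA on the other strand. The farthest upstream window of each RUNX gene held a pair of such cores 2 bases apart, and this pair is shown in capitals with its surroundings, 5′ to 3′ on the strand of the gene.
*Runx1*, chr16:92826025-92826054, minus strand: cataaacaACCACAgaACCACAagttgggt
*Runx2*, chr17:44814583-44814612, minus strand: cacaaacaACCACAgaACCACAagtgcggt
*Runx3*, chr4:135120503-135120532, plus strand: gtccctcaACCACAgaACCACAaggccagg
The first capital stood 28 bases after the RefSeq start in *Runx1*, 23 bases after it in *Runx2* and 134 bases before it in *Runx3*. A single TGTGGT was common, in 16.8% of all 32851 windows. The pair ACCACANNACCACA, a pattern set up after the single hits had been seen, was in 7 windows, or 0.0213%, and 3 of these 7 were the RUNX windows. The shared letters are a description, and nothing in these libraries measured binding there.

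The same search was made for motifs bound by SOX factors, AACAAT, found in 10.7% of all windows, and ACAAAG, found in 18.7%. The GC box of SP factors, GGGCGG, was in 35.7% of them. The single *Hdac4* window held 5 GC boxes, and the single *Sox5* window held no match to any of the 4 motifs. Of the 6 *Sox6* windows, 5 held at least 1 ACAAAG; in 1 of them a copy shared 3 bases with a RUNX core.

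*Mef2c* (chr13:83504034-83667080, plus strand), the factor that starts hypertrophy by way of *Col10a1* and *Runx2*, was higher in every LS1 library. Its count was 13627, 13351 and 11079 in Control and 20436, 14777 and 15231 in LS1. LS1 replicate 1 stood high above the rest, and the other pair exceeded Control by a small margin. The log2 fold change was 0.40 ± 0.16, with an interval of 0.05 to 0.74 and an adjusted p of 0.326 from limma.

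*Hdac4* (chr1:91928779-92195699, minus strand), a class IIa deacetylase that binds and silences MEF2C and RUNX2, differed little. It was measured at 1538, 1554 and 1420 in Control and at 1636, 1721 and 1540 in LS1. LS1 replicate 3 lay between the Control libraries, so the groups overlapped. The log2 fold change of 0.12 ± 0.15 had an interval of -0.20 to 0.44. The antisense gene *Gm26720* shares 3536 bp of exon with *Hdac4* and had 0 reads in every library. As for *Sox5os1*, the strand setting is not given, and reads on the shared bases may be missing from both genes.

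*Sp7* (chr15:102356606-102367182, minus strand) was the nearest to equal between groups, at 15279, 17751 and 16244 in Control and 18783, 15579 and 16805 in LS1. The highest and the second lowest values were both from LS1. Its log2 fold change was 0.05 ± 0.13, with an interval of -0.23 to 0.34. *Dlx5* (chr6:6877805-6882085, minus strand), a homeobox gene that lies upstream of *Sp7* in the osteoblast programme, had counts of 1421, 1372 and 1587 in Control and 1628, 1358 and 1607 in LS1. LS1 replicate 2 held the lowest value of all and LS1 replicate 1 the highest. For *Dlx5* the log2 fold change was 0.07 ± 0.16 with an interval of -0.28 to 0.41, so that a 1.33-fold rise lies at the upper bound.

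**Figure D3:**
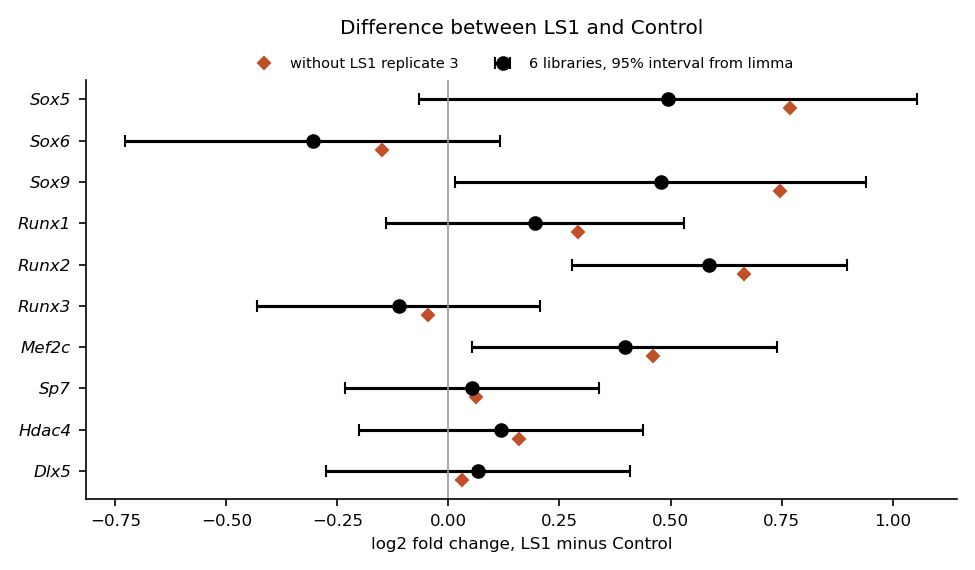
Log2 fold change of each gene, LS1 minus Control: black points with 95% intervals from limma over 6 libraries, and orange diamonds without LS1 replicate 3. The interval lies above 0 for *Sox9*, *Runx2* and *Mef2c*, and leaving out the library moves *Sox5* and *Sox9* the most, to 0.77 and 0.75.

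Across members, the libraries of LS1 were not alike. Relative to the Control mean, the median log2 deviation over the 10 genes was 0.34 in LS1 replicate 1, 0.15 in replicate 2 and 0.02 in replicate 3. LS1 replicate 3 was the lowest LS1 library for 7 of the 10 genes and the highest for 0. In Control, replicate 3 was the lowest for 6 genes, with a median deviation of -0.14. Over all tested genes these medians lay between -0.0032 and 0.0252, near 0 by construction of the scaling; in LS1 replicate 3 the median of the members was below that of all genes.

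Ratios between members within a library set aside what moves both genes together, and 13 of them were compared. The groups did not overlap for 7, each with an exact two-sided permutation p of 0.1, the smallest that 3 against 3 libraries can give (0.186 after Benjamini-Hochberg adjustment over the 13). These 7 are not independent, since 2 have *Sox6* as a term and 5 have *Runx2*, for which the groups were already apart. The share of ratios with groups apart over all pairs of tested genes was not computed. *Sox5* over *Sox6* was -2.91, -2.82 and -2.79 on the log2 scale in Control and -1.66, -2.18 and -2.28 in LS1. It was thus tight in Control and wider and higher in LS1, by 0.80, and by 0.61 to 0.92 when each library was left out in turn. *Sox9* over *Sox6* was -1.02, -0.98 and -0.69 in Control and -0.02, 0.01 and -0.34 in LS1, so that the genes were near equal in count in 2 of the LS1 mice. This difference was 0.78, and 0.72 to 0.90 with a library left out. LS1 replicate 3, which lay inside the Control range for *Sox9*, lay outside it for both ratios. The SD of *Sox9* over *Sox6* within groups was 0.19, less than that of either gene.

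*Runx3* over *Runx2* was -1.82, -1.39 and -1.18 in Control and -2.19, -2.16 and -2.14 in LS1. The LS1 mice differed by less than the Control mice did (SD 0.02 against 0.33), and all lay below them, by a mean of 0.70. *Runx1* over *Runx2* was lower in LS1 by 0.39, *Sp7* over *Runx2* by 0.53 and *Dlx5* over *Runx2* by 0.52, and *Runx2* over *Hdac4* was higher by 0.47. *Mef2c* over *Hdac4* overlapped between groups (difference 0.28, exact permutation p = 0.3). *Sox9* over *Runx2* was no different beyond the spread (-0.11, exact permutation p = 0.9), nor was *Sox9* over *Sox5* (-0.02, exact permutation p = 1.0), with the sign of both depending on single libraries.

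**Figure D4:**
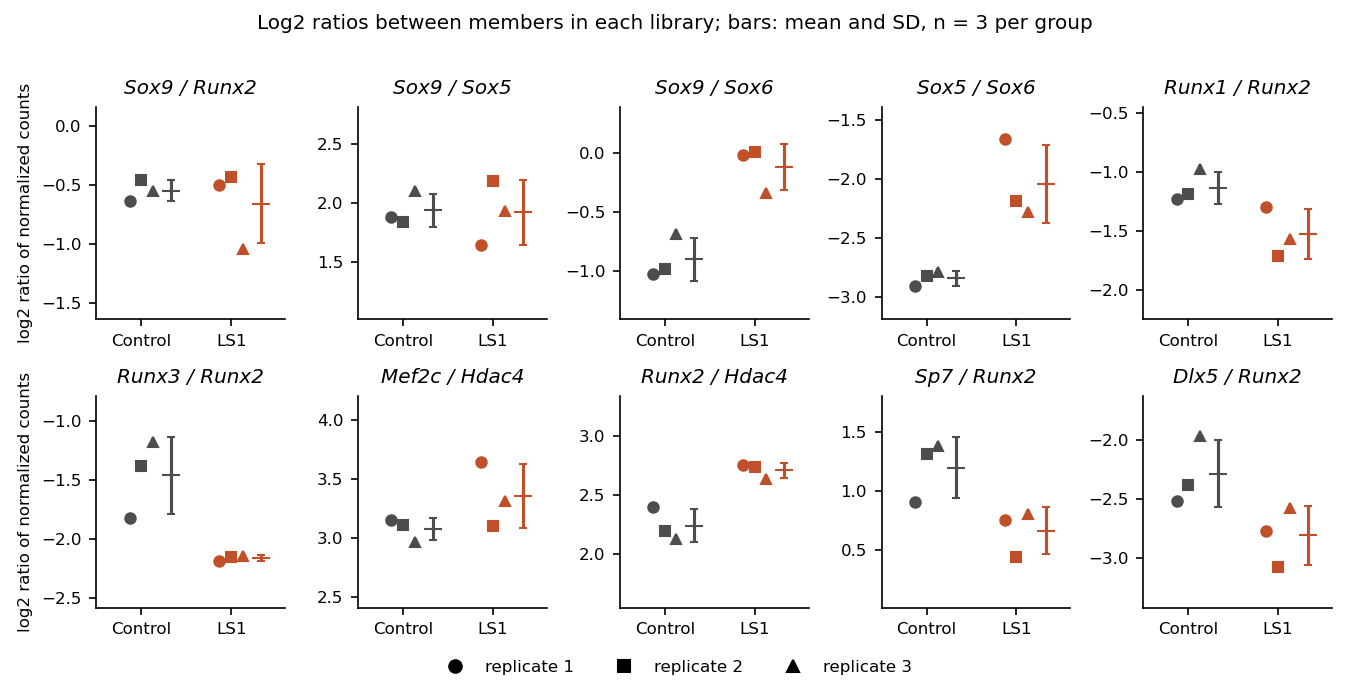
Log2 ratio of the normalized counts of 10 pairs of members in each library (circle, square and triangle are replicates 1, 2 and 3; each panel spans the same range of log2 units), with the group mean and a bar of 1 SD (n = 3). The Control and LS1 points are apart for both ratios over *Sox6* and for *Runx1*, *Runx3*, *Sp7* and *Dlx5* over *Runx2*, as well as for *Runx2* over *Hdac4*, and overlap in the remaining 3.

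Other genes of the same families and their partners were read from lists, and no gene of the first 5 lists passed the adjusted threshold with limma, edgeR or DESeq2. Over all tested genes, an unadjusted limma p under 0.05 was reached by 7.08% on the higher and 5.86% on the lower side. These shares stand beside every such count in the lists and markers below. Of 13 other SOX genes, 9 were tested and 0 reached an unadjusted p under 0.05 (median log2 fold change 0.06). *Sox13*, the remaining member of the subfamily of SOX5 and SOX6, had the smallest p among them at 0.129, with a log2 fold change of 0.42 ± 0.26. *Sox18*, a factor of blood vessels, was about as abundant per kb as *Sox4* (511 ± 65.5 and 580 ± 80.2 in Control, SD, n = 3) and stood at 0.12 ± 0.22. *Sox4* (-0.22), *Sox8* (0.25) and *Sox12* (-0.21) had intervals that included 0.

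Of the RUNX partners and RUNX2 inhibitors, 13 of 15 were tested, 1 reached an unadjusted p under 0.05 in each direction, and the median was 0.12. The common DNA-binding partner *Cbfb* was counted at 11255, 9015 and 8198 in Control and at 15098, 10089 and 11068 in LS1, with a log2 fold change of 0.34 ± 0.18 and groups that overlapped. The co-repressor *Tle1* was higher in every LS1 library (0.36 ± 0.15, limma adjusted p = 0.349). Its relative *Tle2* had counts of 1435, 2095 and 1628 in Control and 776, 960 and 1470 in LS1, where replicate 3 reached into the Control range (-0.72 ± 0.24, limma adjusted p = 0.277). *Zfp521*, a zinc finger inhibitor of RUNX2, was at 0.29 ± 0.13. Without LS1 replicate 3, *Tle2* passed the adjusted threshold of limma, at -0.98, where 1.68% of all genes did.

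The list named SOX9 coactivators held 9 genes, not all of them activators, and all were tested. The median was -0.05, and 1 gene reached an unadjusted p under 0.05, against 12.9% of all tested genes. This was *Trps1*, a GATA-type repressor of the growth plate, at 6640, 6541 and 5598 in Control and 10995, 8233 and 7119 in LS1 (0.47 ± 0.17, limma adjusted p = 0.295). *Zbtb20* (0.28), *Ep300* (-0.19) and *Arid5a* (-0.26) overlapped between groups, as did the most abundant per kb, the ubiquitin ligase gene *Wwp2* (-0.09).

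Of the MEF2 and class IIa HDAC axis, 13 of 14 genes were tested, with 2 higher and 1 lower at an unadjusted p under 0.05 and a median of -0.0044. *Mef2b* had 0 reads in every library. *Pthlh*, which encodes parathyroid hormone-related protein, was low in count and higher in every LS1 library, at 54.5, 64.3 and 58.6 against 122, 88.8 and 94.2 (0.76 ± 0.29, limma adjusted p = 0.317). *Ywhae*, a 14-3-3 protein that keeps phosphorylated HDAC4 in the cytoplasm, was the most abundant per kb and was higher by 0.32 ± 0.13 with groups apart. Of the class IIa relatives of *Hdac4*, *Hdac7* was below Control in every LS1 library (-0.41 ± 0.16, limma adjusted p = 0.318), *Hdac5* stood at -0.34 ± 0.16 with overlapping groups, and *Hdac9* at 0.0082.

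Of the DLX and osteoblast factors, 14 of 15 were tested, 1 reached an unadjusted p under 0.05, and the median was 0.03. This was *Dlx4*, at 150, 169 and 213 in Control and 123, 77.5 and 134 in LS1 (-0.69 ± 0.29, limma adjusted p = 0.358). *Dlx1* (-0.41), *Sp3* (0.23) and *Foxc1* (0.18) had intervals that included 0, and *Atf4*, the most abundant per kb, stood at -0.08.

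Among the genes that the factors act on, those of the cartilage matrix had higher means in LS1 in nearly every case. Of 19 SOX trio targets in cartilage, all tested, 18 had a higher mean in LS1, against 50.7% of all tested genes. An unadjusted p under 0.05 was reached by 8, all higher, against 7.08% of all tested genes. LS1 libraries were all above Control for 10, against 10.3%. The median was 0.32. With limma 0 passed the adjusted threshold and with edgeR 0, while DESeq2 called 6, all higher, where 1.56% of all genes were called higher. *Col9a1*, a chain of the collagen on the surface of cartilage fibrils, was counted at 117743, 126549 and 106039 in Control and 214491, 194599 and 169670 in LS1 (0.72 ± 0.14, DESeq2 adjusted p = 0.0013). *Hapln1*, the link protein of aggrecan, differed by 0.94 ± 0.20, *Matn1* by 0.64 ± 0.13 and *Cnmd* by 0.56 ± 0.13. *Col2a1*, the main cartilage collagen and the most abundant per kb, overlapped between groups (0.24 ± 0.16). Without LS1 replicate 3, limma called 3 genes of this list, with 1.68% of all genes called. *Sox9* over *Col2a1* differed by 0.24 with overlapping groups (exact permutation p = 0.5).

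Of 14 hypertrophy and RUNX2/MEF2C targets, all tested, 3 reached an unadjusted p under 0.05, all higher in LS1, against 7.08% of all tested genes. The median was 0.25. DESeq2 called 1 of them, where 1.56% of all genes were called higher. This was *Col10a1*, the collagen of hypertrophic chondrocytes, at 315844, 372943 and 340963 in Control and 533299, 504434 and 533263 in LS1 (0.61 ± 0.13, DESeq2 adjusted p = 0.0037). All LS1 libraries, replicate 3 included, lay far above Control. Its difference was close in size to that of *Runx2*, and the ratio *Runx2* over *Col10a1* differed by -0.02 (exact permutation p = 0.9). *Panx3* (0.47 ± 0.15) and *Tnfsf11* (0.42 ± 0.18), which encodes RANKL, also had groups apart, whereas *Ibsp* (0.37 ± 0.20) and *Spp1* (0.12 ± 0.19) overlapped.

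Of 12 targets of SP7, DLX5 and RUNX2 in osteoblasts, all tested, 1 reached an unadjusted p under 0.05, and it was lower, against 5.86% of all tested genes. The median was -0.04. *Bglap*, which encodes osteocalcin, was at 57751, 55041 and 45834 in Control and 31971, 37175 and 12317 in LS1, below Control in every library (-1.10 ± 0.42, DESeq2 adjusted p = 0.0448 where 1.02% of all genes were called lower, limma adjusted p = 0.350). Its near-identical copy *Bglap2* stood at -1.18 ± 0.61, and reads shared between the copies make both values uncertain. *Phex* (0.29) and *Ifitm5* (0.37) overlapped. *Col1a1*, the main bone collagen, was below Control in every LS1 library by a small margin (-0.19 ± 0.15), and *Sp7* over *Col1a1* differed by 0.24 (exact permutation p = 0.2).

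**Figure D5:**
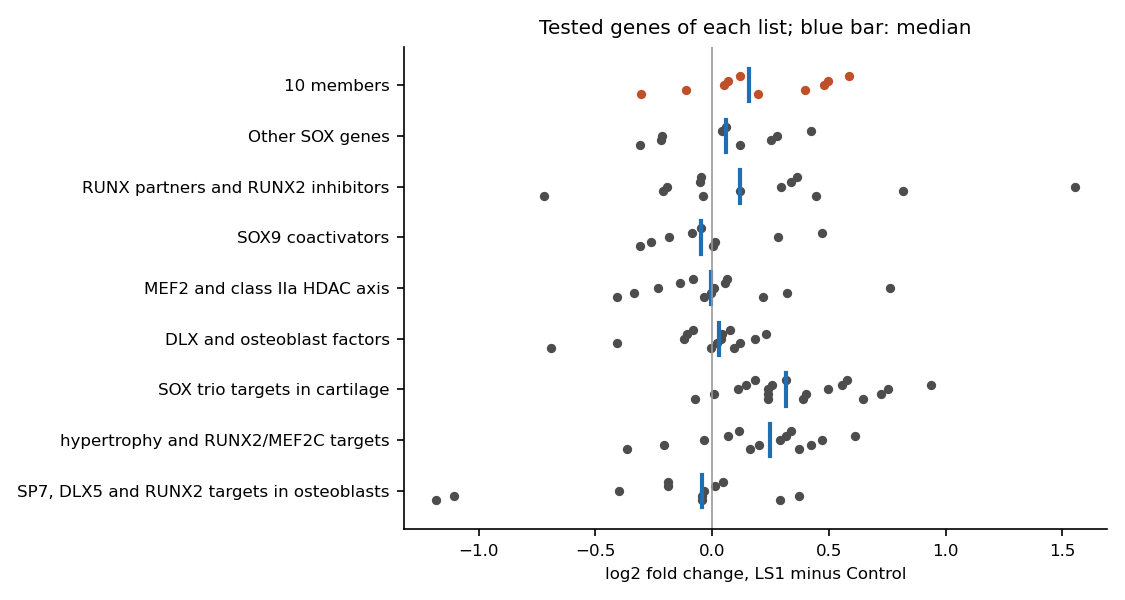
Log2 fold change, LS1 minus Control, of every tested gene of each list (dots, spread vertically for legibility), with the list median as a blue bar and the 10 members in orange. The cartilage targets of the SOX trio lie almost wholly to the right of 0 with a median of 0.32, while the osteoblast targets centre at -0.04 with *Bglap* and *Bglap2* beyond -1.

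Of the cell type markers, those of chondrocytes and of B, T and NK cells had sums that did not overlap between the groups. The 8 chondrocyte markers were all also in the list of SOX trio targets. Their summed normalized count ran from 1845649 to 2128622 among the Control mice and from 2334991 to 2875459 among the LS1 mice. At an unadjusted limma p under 0.05, 5 of 8 were higher, against 7.08% of all tested genes. LS1 replicate 3, at 2442589, was above Control here, unlike for *Sox9* and *Sox5*. The 8 osteoblast markers summed to 2330248 to 2838307 and 2088813 to 2339216, with 1 of 8 lower. Their part in the differences of the members was not tested.

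Of the marrow lists, which bear on *Runx1*, *Runx3* and *Mef2c*, B cell markers had 5 of 8 lower at the same unadjusted threshold (46511 to 49919 in Control, 29035 to 45796 in LS1). On the lower side 3 of 9 erythroid and 3 of 7 megakaryocyte markers passed this threshold, with list medians of -0.52 and -0.59. Of all tested genes, 5.86% were lower there. T and NK cell markers had 2 of 10 higher (1973 to 2543 against 2910 to 6371) and myeloid markers 2 of 9 higher, against 7.08% of all tested genes. The myeloid sums overlapped (115969 to 168439 against 157279 to 167110). Erythroid sums ran from 401016 to 500451 and from 273989 to 443200, and megakaryocyte sums from 22904 to 39334 and from 15475 to 28357. Interferon-stimulated genes were higher in 10 of 10 means, against 50.7% of all tested genes. Their sums were 9726 to 17120 in Control, 26464 and 45091 in the first pair of LS1 libraries and 12433 in LS1 replicate 3. Skeletal muscle (1 of 8 tested lower, 8727 to 21156 against 4175 to 12483), endothelial (1 of 8 higher, 36528 to 40919 against 37421 to 44976) and osteoclast markers (0 of 7, 292029 to 404099 against 245969 to 421697) overlapped. No marker of these lists was at 0 in all libraries, and the part of marrow cells in the values of the members was not tested.

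Genes whose profile over the 6 libraries was most like that of a member were found by the root mean square difference of centred log2 values. For *Runx2* the nearest was *Ndn*, the gene of the growth suppressor necdin, with a difference of 0.03, followed by *Gpc3*, a glypican that restrains body growth, at 0.05, and then *Scamp1*, the pseudogene *Gm6223* and *Trabd2b* (0.06 to 0.08). *Ndn* was counted at 2922, 2576 and 2245 in Control and 4001, 4091 and 3290 in LS1, in step with *Runx2* in every library. For *Mef2c* they were *Zfp709* (0.02), the growth hormone receptor gene *Ghr* (0.04), *Nhsl2*, *Socs6* and *Sgms2* (0.04 each). For *Sox9* they were *Saxo2*, *Snap91* (0.07 each), the interferon-induced kinase gene *Eif2ak2* (0.08), *Cct6b* and *Aldoart1* (0.09 each), with *Saxo2* and *Cct6b* at mean counts of 47.4 and 50.3. Of the members, *Sox5* was the nearest to *Sox9* at 0.18, *Mef2c* the nearest to *Runx2* at 0.18 and *Runx1* the nearest to *Mef2c* at 0.14. Many other genes were nearer, as these members held ranks 147, 575 and 812 among all tested genes. Genes were taken from the full set of tested genes for this likeness, which is a description over 6 libraries and not a test.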

How the data were processed

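Polyadenylated RNA of 6 epiphysis samples (3 Control, 3 LS1) was sequenced. Per the submitters' processing notes, alignment to GRCm38 used HISAT2 2.0.2, counting used featureCounts 1.4.6 and testing used DESeq2; the strand setting of the counting is not given in the sources used here. The deposited values are a signal per gene, that is the authors' counts after division by a size factor for each library. Reads were recovered by division, and 100% of values in each library came out whole within 0.001 of a read. In Control replicate 1 a read was worth 1.01, so near 1 that rounding and recovery look the same, and the count tests were therefore also run on the other 5 libraries. There were 0 unused columns.

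Groups and replicates follow the labels. Genes with a mean of at least 20 reads were compared on log2(value + 1) with limma 3.58.1 in R 4.3.3 (trend, robust moderation, Benjamini-Hochberg adjustment over 19308 genes, threshold 0.05). A fold change on this scale slightly understates that of low genes. The samples were separate mice, so the spread is biological and technical together. The alternatives were edgeR 4.0.16, DESeq2 1.42.0, limma-voom, other scalings, filters and pseudocounts, a replicate block, a covariate of Y-linked expression, and the omission of single libraries. Ratios were tested with exact permutation tests (scipy 1.17.1). Scripts were tested on simulated data.

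The members and lists were chosen with earlier results of these data known, so their directions are not independent evidence. Named genes are the members, up to 4 genes of each list with the smallest limma p, its most abundant gene per kb of exon, the terms of the ratios, and the 5 genes most like each member with an unadjusted p under 0.05. Symbols, coordinates and exon lengths were taken from GENCODE M21 (GRCm38), which is newer than the annotation of the authors and named 99.1% of identifiers. Promoter windows came from RefSeq on GRCm38.p6. Intervals and SDs cover 3 mice per group.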

Additional observations from a re-analysis of the deposited data

How the results depend on the processing

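Under 20 other settings, 17 planned and 3 chosen after seeing the data, 8 of the 10 genes kept their direction throughout, and 190 of 200 values kept direction and side of the threshold, with 6 past it and 4 reversed. The range was 0.49 to 0.68 for *Runx2*, 0.31 to 0.75 for *Sox9*, 0.25 to 0.48 for *Mef2c*, 0.25 to 0.77 for *Sox5* and -0.51 to -0.15 for *Sox6*. Those reversed were *Sp7*, at -0.019 without LS1 replicate 1 and at -0.014 with edgeR and -0.0049 with DESeq2 on the 5 libraries other than Control replicate 1, and *Dlx5*, at -0.0025 with the Y-linked covariate. The number of members with an adjusted p under 0.05, 0 with limma, was 1 with DESeq2, 1 with DESeq2 on the 5 libraries (1.25% of genes called) and 3 with DESeq2 without LS1 replicate 3; with each library left out in turn it was 0 to 1, the 1 without LS1 replicate 3. The number at an unadjusted p under 0.05, 3 with limma, was 1 without LS1 replicate 1 (12.2% of all genes) and 4 without LS1 replicate 3 (16.7%). Members with groups apart, 2 with all libraries, numbered 2 to 6 with a library left out, 4 without Control replicate 1 (30.2% of all genes) and 6 without LS1 replicate 3. Whether the letters that open the sample titles pair the samples cannot be decided from 3 mice per group. The r of deviations was 0.05, 0.02 and 0.22 for the same letter and -0.15 to 0.12 for different letters. Not every sample correlated best with its own letter. With the letters as a replicate block, 5 members had an unadjusted limma p under 0.05, where 17.5% of all genes did, and 0 an adjusted one. Of the lists, DESeq2 called 6 SOX trio targets, 1 hypertrophy target and 1 osteoblast target where limma called 0; with each library left out the counts were 0 to 3 for the SOX trio targets and 0 to 2 for the RUNX partners, the highest without LS1 replicate 3. With each library left out, 3 ratios changed sign: *Sox9* over *Runx2* ran from -0.223 to 0.082 (above 0 without LS1 replicate 3), *Sox9* over *Sox5* from -0.15 to 0.12 (above 0 at 0.062 without Control replicate 3 and 0.12 without LS1 replicate 1) and *Runx2* over *Col10a1* from -0.119 to 0.13 (above 0 at 0.13 without Control replicate 1 and 0.066 without LS1 replicate 3). The causes of these changes were not tested. Scaling per kb changes levels of a ratio and not its difference between groups. No member had fewer than 896 reads in any library. The intervals rest on 3 mice per group and on the spread within groups, which differed between members.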
